A study of Mus musculus with 2 samples.

Results

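The transcripts described here encode the receptors for fibroblast growth factors (FGFs) and the FGF ligands known for roles in cartilage and limb mesenchyme. The 10 genes were chosen by name: the receptors Fgfr1, Fgfr2, Fgfr3, Fgfr4 and Fgfrl1, and the ligands Fgf1, Fgf2, Fgf7, Fgf10 and Fgf18. All 10 were measured, by 23 of 45101 probe sets on the array (10 of 18193 genes), where a probe set is a group of short probes and each of the 23 carries exactly 1 gene symbol. Probe sets whose names end in _a_at, _s_at or _x_at are of types that can match more than 1 transcript. The receptors had 15 of these probe sets and the ligands 8.

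RNA came from ATDC5, a mouse cell line able to differentiate into chondrocytes. In both groups serum-starved cells were first held for 30 min in 10 µg/ml of the protein synthesis inhibitor cycloheximide (CHX). The CHX+PBS group then received PBS for 30 min and the CHX+Nell-1 group received recombinant human Nell-1, a secreted bone-forming glycoprotein, at 100 ng/ml for 30 min, and the aim was to find transcripts that respond without newly made protein. Each group had 1 array with no replicate, so no test was possible and no ratio below has an error between cultures. Because CHX was present in both groups, the ratios describe Nell-1 against PBS with protein synthesis blocked, in 1 cell line.

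FGFs are secreted factors that bind receptor tyrosine kinases together with heparan sulfate or a klotho co-receptor. The active receptor recruits the adaptor FRS2 and signals through RAS and ERK, and Sprouty, Spred and Dusp6 proteins restrain it. In the growth plate FGFR3 restrains chondrocyte proliferation, FGFR1 is prominent in hypertrophic chondrocytes and in perichondrial mesenchyme, and FGFR2 marks mesenchymal condensations.

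On the CHX+PBS array signals ran from 0.0883 to 45842, and on the CHX+Nell-1 array from 0.0660 to 41205. Medians were 69.5 and 62.6, and the 2% trimmed mean was 500.0 on both. Of 10 chondrogenic markers, 7 had a mean signal above the array median, among them Sox9, Col2a1 and Acan, while Comp, Matn1 and Matn3 lay below it. All 6 endothelial markers lay below it. Of 8 epithelial markers 3 lay above it, as did 2 of 5 haematopoietic and 6 of 7 mesenchymal markers. RNA integrity by the ratio of 3′ over 5′ control probe sets was similar, at 0.848 and 0.858 for Gapdh and 1.32 and 1.28 for Actb on the CHX+PBS and CHX+Nell-1 arrays. The 24 probe sets for poly-A RNAs added before labelling were all lower with Nell-1 and had a median log2 ratio of -0.49, and the 18 hybridisation spike-ins were all lower, with a median of -0.18.

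The region around the transcription start was read from RefSeq sequences of build GRCm38.p6 for 8 of the 10 genes, in 9 entries of 300 bases, 250 before the start and 50 after it. Fgfr1 and Fgf1 have no sequence here. Because primary response genes are commonly controlled through motifs near their start, 3 well-measured members are shown 5′ to 3′: the kinase-lacking receptor gene Fgfrl1 (chr5:108693979-108694278, plus strand), the upstream of 2 Fgfr3 starts (chr5:33721474-33721773, plus strand) and the ligand gene Fgf7 (chr2:126034408-126034707, plus strand). Capitals mark GC boxes (GGGCGG, the letters bound by SP1-type factors) and EGR sites (GCGGGGGCG or GCGTGGGCG) on either strand. These motifs can overlap.
Fgfrl1: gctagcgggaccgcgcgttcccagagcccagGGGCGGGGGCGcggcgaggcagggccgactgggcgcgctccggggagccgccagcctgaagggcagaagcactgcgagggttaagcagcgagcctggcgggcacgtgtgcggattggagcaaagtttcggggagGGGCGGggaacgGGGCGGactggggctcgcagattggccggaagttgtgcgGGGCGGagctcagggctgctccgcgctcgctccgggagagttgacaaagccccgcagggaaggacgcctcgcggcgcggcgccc
Fgfr3: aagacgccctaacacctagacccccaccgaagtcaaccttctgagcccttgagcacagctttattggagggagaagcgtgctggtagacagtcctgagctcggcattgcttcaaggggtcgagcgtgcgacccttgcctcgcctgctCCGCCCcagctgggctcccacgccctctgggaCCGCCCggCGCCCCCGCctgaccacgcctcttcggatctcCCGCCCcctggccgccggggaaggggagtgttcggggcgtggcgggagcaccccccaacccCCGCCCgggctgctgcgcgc
Fgf7: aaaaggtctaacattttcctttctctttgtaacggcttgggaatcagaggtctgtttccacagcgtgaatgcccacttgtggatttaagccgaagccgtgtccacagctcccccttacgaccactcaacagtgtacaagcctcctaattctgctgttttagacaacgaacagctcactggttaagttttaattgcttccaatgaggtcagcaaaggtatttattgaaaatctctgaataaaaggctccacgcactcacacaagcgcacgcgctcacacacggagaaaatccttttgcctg

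The Fgfrl1 sequence held 4 GC boxes and 1 EGR site, and the printed Fgfr3 sequence likewise 4 and 1. The other Fgfr3 start, not printed, had 2 GC boxes and no EGR site. In the Fgf7 sequence neither motif was found. A GC box was present in 35.7% and an EGR site in 3.47% of 32851 promoter entries of the same length. GC content was 73.7% for Fgfrl1, 69.7% for this Fgfr3 start and 45.7% for Fgf7, against a median of 52.7% over all entries. Fgf2 also held 1 EGR site, Fgfr4 had 4 GC boxes, and the Fgfr2 entry had none, with a GC content of 43.7%. The TATA box (TATAAA, 13.6% of entries), the AP-1 site (TGACTCA, 5.20%), the cyclic AMP response element (TGACGTCA, 1.79%) and the CArG box bound by serum response factor (1.63%), each searched on both strands, were not found in any of the 9 member windows. A match in these windows is a run of letters and not a measured binding site.

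Among the FGF receptors and ligands, Fgfr1 was lower with Nell-1 on all 3 of its probe sets, and the pair with the largest ratios, at 1.46-fold and 1.54-fold, are both of types shared between transcripts. Its probe set of the plain type was 1.20-fold lower. Fgfr2, Fgfr3 and Fgf7 had nearly equal signals on both arrays in their bright probe sets. Fgf2, Fgf10 and Fgf18 gave signals below the array median on both arrays. The bright probe sets are those with a mean signal over both arrays at or above 64.3, the median of all non-control probe sets. Of the 13 member probe sets above this level, 1 was at least 1.5-fold lower, none was higher and 12 were neither, where 1.5-fold is the cutoff in the submitters' own filter. Over all 22519 probe sets above the median signal, 5.97% passed 1.5-fold higher and 8.48% lower, 14.5% together. The 1 of 13 among the members was not above this background. The median log2 ratio (CHX+Nell-1 over CHX+PBS) of the 13 was 0.05 and that of all 22519 was -0.03. In bulk RNA, fewer cells of a kind and less RNA per cell cannot be told apart.

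**Figure D1:**
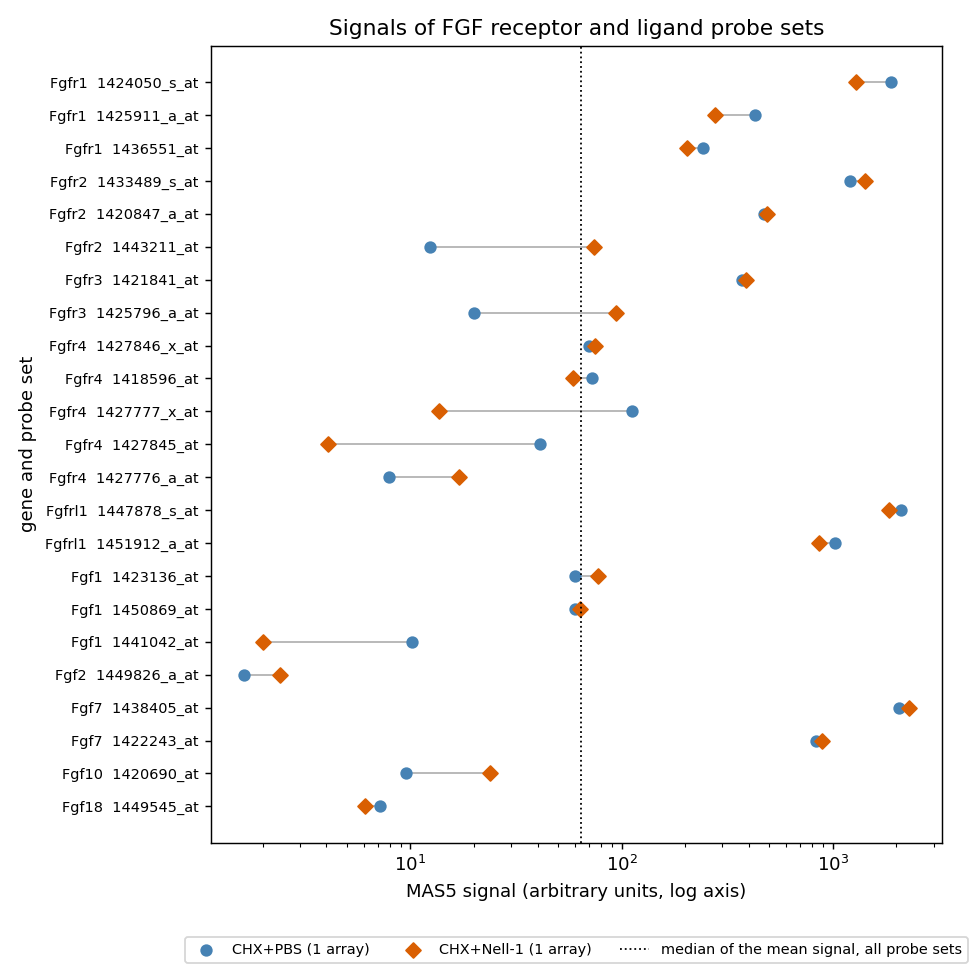
MAS5 signal (log axis, arbitrary units) of the 23 probe sets of FGF receptor and ligand genes on the CHX+PBS array (circles) and the CHX+Nell-1 array (diamonds), 1 array each, with no error bars because there are no replicates. The dotted line is the median of the mean signal, 64.3; the 3 Fgfr1 pairs lie to its right with the CHX+Nell-1 point lower in each, and the widest gaps belong to pairs whose mean lies left of it.

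Fgfr1 encodes the receptor that responds to FGF1 and FGF2 in mesenchymal cells. Its brightest probe set, 1424050_s_at, measured 1878 with PBS against 1284 with Nell-1, a log2 ratio of -0.55 or 1.46-fold lower. Probe set 1425911_a_at measured 427 with PBS against 277 with Nell-1, a log2 ratio of -0.62 or 1.54-fold lower. The dimmest, 1436551_at, gave 244 with PBS against 203 with Nell-1, a log2 ratio of -0.26 or 1.20-fold lower. All 3 were lower on the CHX+Nell-1 array, and 1 of them passed 1.5-fold. Without the shared types no Fgfr1 probe set passed it. The ratio of the remaining one, 1436551_at, was smaller in size than those of the bright probe sets Fgf1 1423136_at (0.36) and Fgfr4 1418596_at (-0.29). Those probe sets are dimmer. Against the spread at similar signal, the yardstick explained next, 1436551_at stood at 0.605, and those probe sets at 0.580 and 0.464. Other bright probe sets stood further out. These were both of Fgfrl1 (0.898 and 0.899), Fgfr2 1433489_s_at (0.787) and Fgf7 1438405_at (0.725).

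A yardstick for these ratios is the robust SD of the log2 ratio, from the median absolute deviation, among probe sets of similar signal in 10 equal bins. This spread mixes measurement noise with real differences and is not an error between cultures. For the Fgfr1 probe sets it was 0.28, 0.33 and 0.43 in the order above, so the ratios stood at 1.94, 1.88 and 0.605 times the yardstick. In their bins 2.91%, 4.04% and 30.8% of probe sets had a ratio as low or lower. Among 1299 genes with exactly 3 probe sets above the median signal, 288 (22.2%) had all 3 ratios below 0, and 63 (4.85%) had a mean ratio at or below the -0.48 of Fgfr1. These genes were not matched to Fgfr1 by signal. Fgfr1 had the lowest mean over bright probe sets of the members, so the 4.85% is not independent support for a difference. The Fgfr1 ratio past 1.5-fold fell short of 1.5-fold when the arrays were centred on their median log2 signals, at -0.47. The Fgfr1 ratios are of about the size of the poly-A spike-in median of -0.49, and the part of that shift in the Fgfr1 difference was not tested. The 6 mesenchymal markers above the median signal had a median log2 ratio of -0.19, none past 1.5-fold, with Twist1 lowest at -0.55. The summed signal of the 7 measured mesenchymal markers was 122459 with PBS and 107459 with Nell-1, and its part in the result was not tested.

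Fgfrl1 encodes a receptor-like membrane protein that binds FGFs and lacks the tyrosine kinase domain. Its 2 probe sets agreed within 0.07 on the log2 scale. Probe set 1447878_s_at measured 2112 with PBS against 1856 with Nell-1, a log2 ratio of -0.19. Probe set 1451912_a_at measured 1024 with PBS against 858 with Nell-1, a log2 ratio of -0.25. Both lay slightly lower with Nell-1 and within 1 robust SD of 0, at 0.898 and 0.899 times the yardstick. Of 3109 genes with 2 probe sets above the median signal, 36.6% had both ratios below 0 and 30.1% had both above 0.

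Fgfr2, the receptor of condensing mesenchyme and, in a different splice form, of epithelia, had a pair of bright probe sets with ratios close to 0 and 1 dim probe set far from it. Probe set 1433489_s_at measured 1211 with PBS against 1414 with Nell-1, a log2 ratio of 0.22. Probe set 1420847_a_at measured 471 with PBS against 488 with Nell-1, a log2 ratio of 0.05. The dim probe set 1443211_at measured 12.4 with PBS against 73.9 with Nell-1, a log2 ratio of 2.58 or 5.98-fold. Its mean signal of 43.1 lay in a bin where 53.8% of probe sets passed 1.5-fold in one direction or the other and where 1.93% had a ratio as high. The probe sets of Fgfr2 therefore spanned 2.53 on the log2 scale, and the bright ones did not show the difference of the dim one.

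Fgfr3, the brake on growth plate proliferation, showed the same arrangement. The bright probe set 1421841_at measured 371 with PBS against 389 with Nell-1, a log2 ratio of 0.07. This is 0.205 times the yardstick, and 60.9% of probe sets in its bin had a ratio as low or lower. The dim probe set 1425796_a_at measured 20.1 with PBS against 94.4 with Nell-1, a log2 ratio of 2.24 or 4.71-fold. In that bin 3.13% had a ratio as high. Which Fgfr3 transcript forms the pair of probe sets separate was not examined.

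Fgfr4, a receptor best known in liver and muscle, had 5 probe sets that disagreed in sign and size. The brightest, 1427846_x_at, measured 70.3 with PBS against 74.9 with Nell-1, a log2 ratio of 0.09. Probe set 1418596_at measured 72.1 with PBS against 59.0 with Nell-1, a log2 ratio of -0.29. These were just above the array median, and both differed by less than 1 robust SD of 0.62.

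The other 3 Fgfr4 probe sets were dim, and each passed 1.5-fold. Probe set 1427777_x_at measured 112 with PBS against 13.6 with Nell-1, a log2 ratio of -3.04. Probe set 1427845_at measured 40.9 with PBS against 4.06 with Nell-1, a log2 ratio of -3.33. Probe set 1427776_a_at measured 7.94 with PBS against 17.1 with Nell-1, a log2 ratio of 1.11. The platform annotation assigns the first and the last of these to the same sequence record, and their log2 ratios differed by 4.15. The second shares its record with the brightest Fgfr4 probe set, and those ratios differed by 3.42. Probe sets built on 1 record thus gave unlike readings for Fgfr4 in the same pair of RNA samples, and no direction is given for this gene.

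Fgf7, a mesenchymal ligand of the epithelial form of FGFR2, had 2 bright probe sets, and neither passed 1.5-fold. Probe set 1438405_at measured 2069 with PBS against 2296 with Nell-1, a log2 ratio of 0.15. Probe set 1422243_at measured 836 with PBS against 894 with Nell-1, a log2 ratio of 0.10. Both ratios were slightly above 0 and stood at 0.725 and 0.344 times the yardstick.

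Fgf1, a ligand of all the kinase-bearing FGF receptors, gave signals around the array median. Probe set 1423136_at measured 60.0 with PBS against 77.0 with Nell-1, a log2 ratio of 0.36. Probe set 1450869_at, assigned to the same sequence record, measured 60.0 with PBS against 63.2 with Nell-1, a log2 ratio of 0.08. Their ratios differed by 0.28, and both lay within 1 robust SD of 0. A dimmer Fgf1 probe set, 1441042_at, measured 10.2 with PBS against 2.01 with Nell-1, a log2 ratio of -2.35, with the opposite sign to the others.

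The remaining ligands each had 1 probe set and low signals on both arrays. Fgf2, a mitogen for chondrocytes and stem cells, measured 1.63 with PBS against 2.43 with Nell-1, a log2 ratio of 0.57. Fgf18, a perichondrial ligand that acts through FGFR3 in the growth plate, measured 7.14 with PBS against 6.08 with Nell-1, a log2 ratio of -0.23. Fgf10, a limb bud ligand, measured 9.55 with PBS against 23.8 with Nell-1, a log2 ratio of 1.32 or 2.50-fold higher. With signals as deposited the Fgf10 probe set passed 1.5-fold, in a bin where 77.9% of probe sets passed. The other 2 did not, in bins where 61.9% (Fgf2) and 72.8% (Fgf18) passed. With a floor of 17.9 the Fgf10 log2 ratio was 0.42, short of 1.5-fold. Fgf2 passed 1.5-fold under median centring (0.72), loess (0.88) and quantile normalisation (0.82). Its log2 ratio was 0.06 with a constant of 17.9 added and 0 with the floor. The Fgf10 ratio stood at 0.591 times the yardstick. At such signals a difference of this size was not distinguishable from the general spread.

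**Figure D2:**
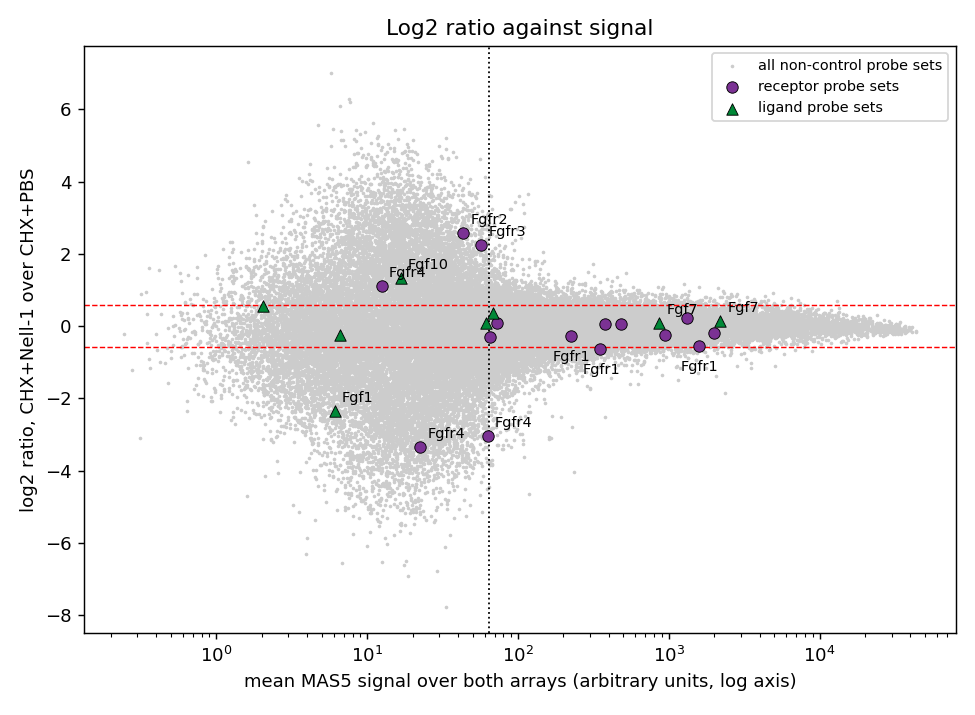
Log2 ratio (CHX+Nell-1 over CHX+PBS) against the mean signal over both arrays (log axis), with all 45037 non-control probe sets in grey, receptor probe sets as circles and ligand probe sets as triangles. Dashed lines mark 1.5-fold and the dotted line the median signal of 64.3; of the 13 member probe sets right of the dotted line 1, for Fgfr1, lies outside the dashed lines.

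Taking both sides of the median signal, 4 of the 23 member probe sets passed 1.5-fold with a higher signal under Nell-1, 4 with a lower one, and 15 did not pass. Over all 45037 probe sets 17.5% were higher and 23.1% lower, 40.6% together. Among the 10 dim member probe sets 4 were higher and 3 lower, where 29.1% and 37.6% of all dim probe sets were, 66.7% together. With so few probe sets these counts are not told apart from the shares on the array. By role, the 10 bright receptor probe sets had a median log2 ratio of -0.22, with 4 above 0 and 6 below. All 3 bright ligand probe sets lay above 0, between 0.10 and 0.36, but 2 of them belong to Fgf7. The other, Fgf1 1423136_at, exceeded the median signal on the CHX+Nell-1 array only (60.0 with PBS and 77.0 with Nell-1). Among the bright receptor probe sets, Fgfr4 1418596_at exceeded it on the CHX+PBS array only (72.1 with PBS and 59.0 with Nell-1). Of the dim receptor probe sets, Fgfr4 1427777_x_at exceeded it on the CHX+PBS array only (112 with PBS). Fgfr2 1443211_at (73.9 with Nell-1) and Fgfr3 1425796_a_at (94.4 with Nell-1) exceeded it on the CHX+Nell-1 array only. The difference between receptors and ligands was not tested, since probe sets of a gene are not replicates of a condition.

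The position of the receptor and ligand probe sets depended little on how the arrays were scaled, apart from a common shift. Centring each array on its median log2 signal moved the median ratio of all bright probe sets from -0.03 to 0.13, and with it the split of bright probe sets past 1.5-fold from 1344 higher and 1910 lower (41.3% higher) to 2408 and 1242 (66.0% higher). Removal of a loess trend left 1575 and 1630, and quantile normalisation 1601 and 1606. Under these scalings, and with a constant added or a floor set, each of the 13 bright member probe sets kept the sign of its ratio. The first Fgfr1 ratio ranged from -0.56 to -0.40, and the brighter Fgfrl1 ratio from -0.20 to -0.03.

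**Figure D3:**
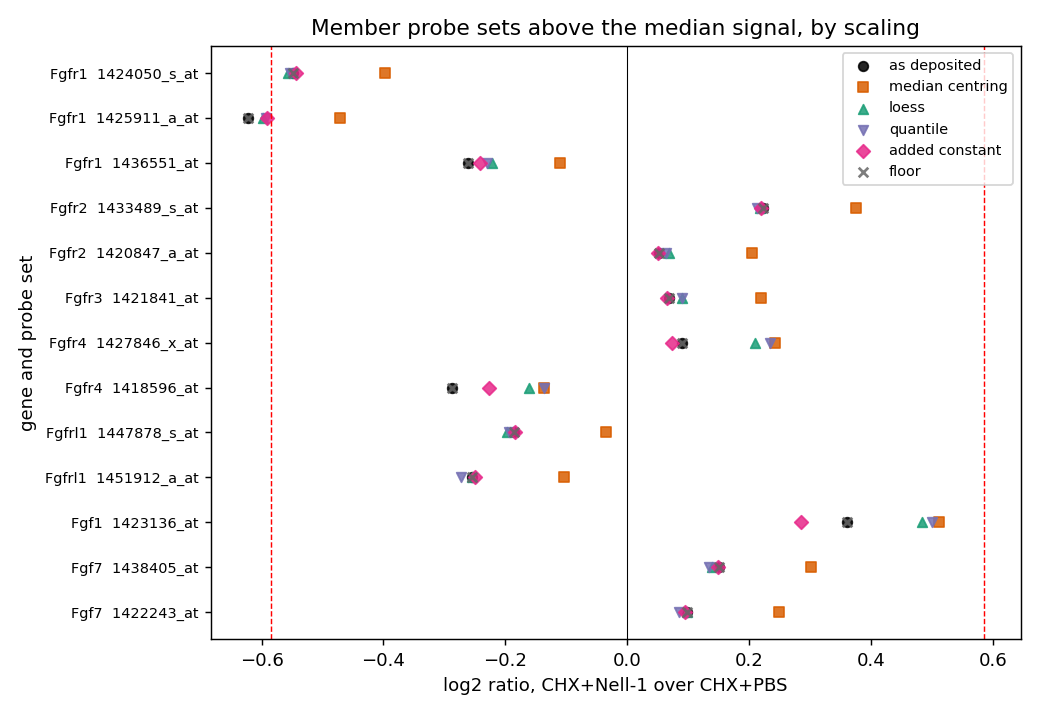
Log2 ratio (CHX+Nell-1 over CHX+PBS) for the 13 member probe sets above the median signal, under the deposited scaling and 5 alternatives (symbols), with dashed lines at 1.5-fold. Median centring (squares) shifts all probe sets to the right, and the Fgfr1 probe set at -0.62 as deposited moves to -0.47, inside the lines.

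The other genes of the FGF pathway were taken as 5 lists with 71 genes, of which 61 had a probe set carrying 1 symbol and the other 10 were not analysed here. A gene was represented by its brightest probe set. Of 39 genes above the median signal, 2 were at least 1.5-fold higher and 9 lower, 28.2% together. Over all 11600 genes above it 4.56% were higher and 7.53% lower, 12.1% together. The median log2 ratio was -0.07 for the 39 genes and -0.03 for all genes above it. With median centring the 9 lower genes became 4, and Hs6st1 and Frs3, named below, were no longer past 1.5-fold. Of the genes past 1.5-fold, Flrt3, Fgf3, Fgf17, Fgf9 and Spry4 exceeded 64.3 on 1 array only. They lie in the signal bin next to the median, where 36.3% of probe sets passed 1.5-fold. The lists were chosen with earlier results of these data known, so the 28.2% is not independent support for a difference in the pathway.

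Targets and feedback inhibitors of the pathway held 4 of those 9. Of 8 measured above the median signal, 4 were at least 1.5-fold lower and none higher, with a median log2 ratio of -0.52. Over all genes above the median signal 7.53% were lower. With median centring 1 of the 8 was lower and 1 higher, and at 2-fold none was lower. Dusp6, the phosphatase that inactivates ERK, measured 755 with PBS against 489 with Nell-1, a log2 ratio of -0.62. Spry1, a Sprouty inhibitor of receptor tyrosine kinase signalling, measured 378 with PBS against 242 with Nell-1, a log2 ratio of -0.64. The related Spry4 measured 99.4 with PBS against 61.9 with Nell-1, a log2 ratio of -0.68. These 3 had 1 bright probe set each. Spred2, which blocks RAF activation, was lower on both of its bright probe sets, with -0.99 and -0.86. The other 4 did not pass 1.5-fold. Spry2 was at -0.42, Il17rd at -0.25 and Etv5 at 0.03. Spred1 was at 0.52 on its brightest probe set, and its 6 bright probe sets ran from -0.30 to 0.52. Dusp6, the Sprouty genes and Spred2 are not specific to FGF receptors, since they act on signals of other receptor tyrosine kinases too. The poly-A spike-in median of -0.49 is near the ratios of Dusp6, Spry1 and Spry4, and its part in the ratios of this list was not tested.

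On their brightest probe sets, few of the adaptors and kinases between receptor and ERK differed by 1.5-fold. Of 14 measured, all above the median signal, none was 1.5-fold higher and 1 was lower, and the median log2 ratio was -0.01. Frs3, a docking protein related to FRS2, was that gene, with 320 with PBS against 201 with Nell-1, a log2 ratio of -0.67 on its only probe set. Shc1, an adaptor, had -0.45, Gab1, a docking protein that binds the phosphatase encoded by Ptpn11, had -0.27, and Sos1, the RAS exchange factor, had 0.38, none past 1.5-fold on the brightest probe set. Dimmer probe sets above the median signal were lower by 1.5-fold for Crk (-1.06), Gab1 (-0.94), Map2k2 (-0.61) and Crkl (-0.59), whose brightest probe sets did not pass. With means over probe sets 1 gene of this list was higher and 2 were lower.

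Among co-receptors, binding proteins and heparan sulfate enzymes, 10 of 15 lay above the median signal, with 1 higher, 1 lower, 8 neither and a median log2 ratio of 0.01. Hs6st1, which adds 6-O-sulfate to heparan sulfate, measured 398 with PBS against 259 with Nell-1, a log2 ratio of -0.62. Its relative Hs6st2 measured 1481 with PBS against 1930 with Nell-1, a log2 ratio of 0.38, while another of its probe sets gave -0.27. Flrt3, a membrane protein that binds FGF receptors, measured 39.0 with PBS against 108 with Nell-1, a log2 ratio of 1.47, on 1 bright probe set. Sulf2, which removes 6-O-sulfate, was at -0.14. The klotho genes Kl (6.09 and 6.22) and Klb (5.86 and 8.09) were dim on both arrays.

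The other 17 FGF ligand genes were mostly dim, with 13 below the median signal. The 4 above it were Fgf3 (123 with PBS and 53.9 with Nell-1), Fgf17 (111 and 49.4), Fgf9 (90.9 and 52.5) and Fgf4 (111 and 120). Of these 4, the first 3 were at least 1.5-fold lower, all in the signal bin next to the median, where 22.9% of probe sets were lower. In total 5 of the 17 were higher and 10 lower, against 13.1% and 19.0% of all 18193 genes, 32.1% together, of which many are brighter. Among genes below the median signal 28.1% were higher and 39.2% lower, 67.3% together.

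Of the growth plate genes downstream of FGFR3, 3 of 4 measured lay above the median signal. Cdkn1a, a cell-cycle inhibitor, measured 408 with PBS against 770 with Nell-1, a log2 ratio of 0.92, while its other bright probe set gave 0.01. Sox9, the master factor of chondrocytes, was at -0.39, and -0.05 on its other bright probe set, and Snai1, a transcriptional repressor, at -0.35, neither past 1.5-fold. Ihh, the hedgehog ligand of prehypertrophic chondrocytes, was dim, with 76.5 with PBS and 25.4 with Nell-1.

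**Figure D4:**
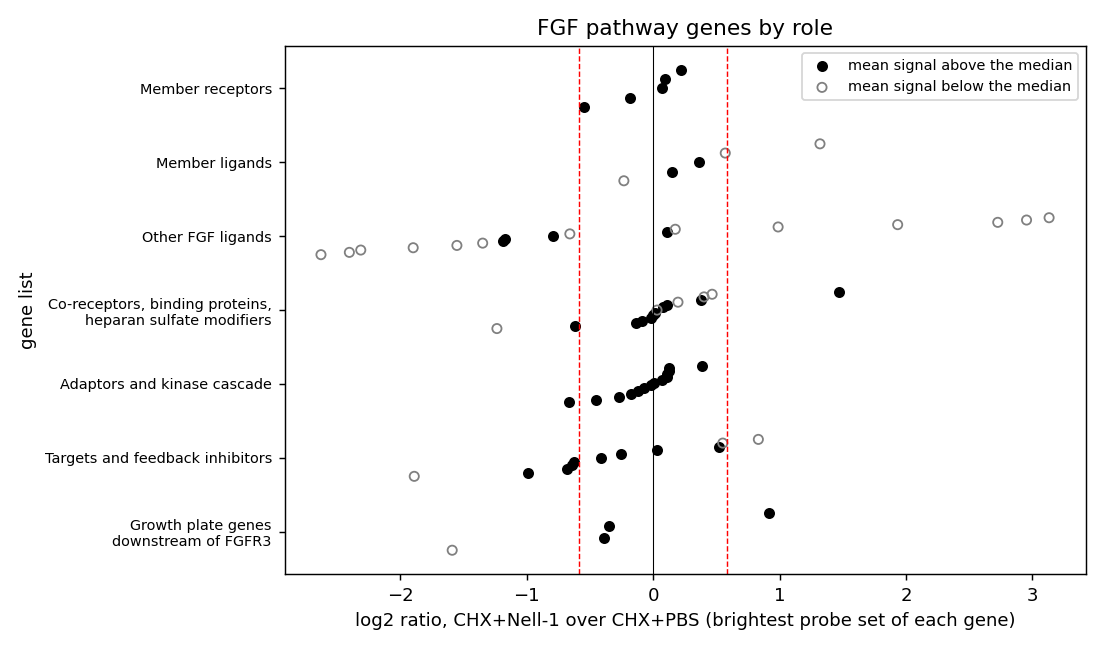
Log2 ratio (CHX+Nell-1 over CHX+PBS) for the brightest probe set of each gene, by role in the FGF pathway; filled points have a mean signal above the array median, open points below, and dashed lines mark 1.5-fold. Adaptors and kinases cluster around 0 with a median of -0.01, 4 of the 8 filled targets and feedback inhibitors lie left of the lower line (1 with median centring), and the open points of the ligands spread widely to both sides.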

How the data were processed

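Total RNA of 2 samples, 1 per group, was hybridised to 1 Affymetrix mouse array each. The deposited values are intensities, linear MAS5 signals per probe set, made by the authors with MAS5 in Affymetrix Expression Console, per the submitters' processing notes. The versions of both: not given in the sources used here. This software scales each array by 1 factor. Detection calls were not used here, so low abundance was judged from the signal alone, and ratios of low signals are unstable.

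Columns were assigned by sample name. Of 45101 probe sets 64 were controls. Of the other 45037 the platform annotation gave 1 symbol to 34945, several to 932 and none to 9160, and no gene was named from the last 2 kinds. All 71 measured member and list genes carried the same symbol in RefSeq's GRCm38.p6 gene table. The log2 ratio of the signals as deposited was the measure, with no constant added. With 1 array per group no test was run, and the number of arrays limits the precision. Members and lists were chosen with earlier results of these data known. Every member probe set was named, and from each list up to 4 bright genes with the largest ratios, in which bright means above the median signal; the dim list genes, other probe sets of list genes and the markers named were chosen after their values were seen. Alternatives were median centring, loess (span 0.3), quantile normalisation, an added or floor value of 17.9 (the 25th percentile of mean signal), 2-fold, other signal filters, probe sets without the shared types and means over probe sets. Code was tested on simulated arrays (Python 3.11.15, pandas 2.3.3, statsmodels 0.14.6).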

Additional observations from a re-analysis of the deposited data

How the results depend on the processing

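Each group has 1 array, so no replicate could be left out. No paired analysis was possible because neither group has a second array. The share of bright probe sets past the threshold, 14.5%, was 4.04% at 2-fold, 40.6% with no filter on signal and 6.60% at a mean signal of 200 or more. The count of member probe sets past 1.5-fold, 0 higher and 1 lower, became 4 higher and 4 lower with no filter on signal. The 1 lower, of Fgfr1, was 0 with median centring, at 2-fold and without the shared probe set types, since it is of such a type. Pathway genes, 2 higher and 9 lower, were 1 and 2 at 2-fold, and 3 and 4 with median centring. With means over probe sets they were 3 and 13, and the lower targets and feedback inhibitors 6 in place of 4. No member probe set past 1.5-fold changed sign under another scaling, an added constant or a floor, but some dim ones no longer passed. The floor put Fgf1 1441042_at and Fgfr4 1427776_a_at at 0 and Fgf10 at 0.42, and the added constant put the first 2 at -0.50 and 0.44. Fgfr4 1427845_at, at -3.33 as deposited, was -1.19 with the floor and -1.42 with the added constant. The median ratio of the bright member probe sets, 0.05, was 0.20 with median centring and -0.07 at a signal of 200 or more.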

Other observations

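Splicing of Fgfr2 into its epithelial form is directed by the regulators ESRP1 and ESRP2, and both genes were on the array. Esrp1 was dim, with 1.91 with PBS and 1.48 with Nell-1. Esrp2 measured 109 with PBS against 171 with Nell-1, a log2 ratio of 0.65 on its only bright probe set. Of the other epithelial markers, Epcam measured 466 with PBS and 370 with Nell-1 on its only bright probe set, and Krt5 102 and 61.0. The other 4 were dim: Cdh1, the epithelial cadherin (2.92 and 21.1), Krt14 (33.4 and 53.0), Cldn4 (5.98 and 12.0) and Ovol1 (40.4 and 24.3). The probe sets given for Esrp2 and Epcam are of the shared types. Whether the Fgfr2 probe sets separate the splice forms was not tested.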
